A study of Homo sapiens with 12 samples.

Results

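SW1990 and PANC-1, established human cell lines of pancreatic ductal adenocarcinoma, were compared in the 6 arrays labelled GLI1, 3 of each line, out of the 12 arrays of the series. The arrays were chosen by their labels for cell line and transfection, no measured value was used, and all 22411 genes with a single symbol entered the comparison. The study asked which transcripts change when the GLI1 cDNA is transfected, and the comparison made here is between the lines that carry the same label. According to the labels, SW1990 and PANC-1 cells in logarithmic growth, kept in DMEM with serum, received a plasmid that expresses GLI1 with a lipid reagent, and the 6 control arrays, 3 per line, came from cells given the empty vector. The transfection was transient as described, and the share of cells that took up the plasmid is not given. Total RNA was labelled with biotin and read on probe sets of the Affymetrix Human Transcriptome Array, whereas the methods describe slides and a dye of another maker. The arrays of each line are named LIP, LIP-1 and LIP-2, names the labels do not explain, and values below are given in that order. No source says that the 3 arrays of a line came from separate cultures, so a p-value covers no more than the spread among these arrays, and that spread may be technical.

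GLI1, a zinc finger factor that carries Hedgehog signals to the genome and the gene on the plasmid, was at 7.0, 6.90 and 6.77 in the SW1990 arrays, against 7.76, 8.0 and 8.04 in the PANC-1 arrays. It was lower in every SW1990 array than in every PANC-1 array, with a log2 difference of -1.04 (SE 0.095, adjusted p = 0.000104). The control arrays of the same lines stood at 11.82, 11.84 and 11.76 in SW1990 and at 11.50, 11.54 and 11.46 in PANC-1, so in both lines the arrays labelled GLI1 had less GLI1 signal than the controls. GLI1 thus ran against the label, and "labelled GLI1" is used throughout for the name of the group and not for its GLI1 level. The comparison of the lines sets arrays of the same label side by side and takes no direction from the label.

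All values are quantile-normalized log2 signals, in which the gene means ran from 2.52 to 14.04 with a median of 7.22, and a difference of 1 is 2-fold. A difference is always SW1990 minus PANC-1, and a value after "differed by" or alone in parentheses after a gene is such a log2 difference. Arrays of a line correlated at 0.994 to 0.998 over all genes and arrays of different lines at 0.939 to 0.945. In PANC-1, array LIP stood further from LIP-1 and LIP-2 (SD of the difference 0.199 and 0.229) than those 2 from each other (0.136). Of 16 ductal markers, 7 were higher in SW1990, 2 lower and 7 did not pass, and their median signal per array was 7.62 to 7.85 in SW1990 and 7.72 to 7.93 in PANC-1. Keratins of simple epithelia were bright in both lines, with KRT8 at 12.14, 12.12 and 12.15 in the SW1990 arrays, against 11.48, 11.51 and 11.62 in the PANC-1 arrays and KRT18 at 12.55, 12.49 and 12.39 in the SW1990 arrays, against 12.27, 12.02 and 12.05 in the PANC-1 arrays. The ductal markers SPP1 and CFTR were dim, with SPP1 at 3.74, 3.76 and 3.58 in the SW1990 arrays, against 3.81, 3.76 and 3.84 in the PANC-1 arrays and CFTR at 4.83, 5.16 and 5.16 in the SW1990 arrays, against 4.15, 4.16 and 4.16 in the PANC-1 arrays. Of the defining markers of other cells, PTPRC, the common leukocyte antigen, was at 3.50, 3.43 and 3.42 in the SW1990 arrays, against 3.44, 3.40 and 3.44 in the PANC-1 arrays, and the endothelial PECAM1 was at 4.27, 4.55 and 4.28 in the SW1990 arrays, against 4.18, 4.51 and 4.33 in the PANC-1 arrays. Both lay near the lower end of the scale, whereas the acinar CPA1 lay near its middle in both lines, at 7.08, 7.11 and 7.03 in the SW1990 arrays, against 7.03, 6.98 and 7.02 in the PANC-1 arrays. Of the marker lists, 1 of 17 leukocyte genes was higher in SW1990 (CORO1A) and 1 lower (CD68), 1 of 12 endothelial genes was higher (ERG) and 1 lower (KDR), 2 of 18 acinar genes were higher (PRSS1 and CEL), 1 of 9 endocrine genes was higher (PAX6), and 2 of 14 fibroblast genes were higher (ACTA2 and MMP11) and 2 lower (COL1A1 and FBLN1). Of all genes, 21.4% were higher and 18.8% lower, and the MMP11 call was lost when any array other than SW1990 LIP-2 was left out. Per array, the median signal of the marker list was 6.03 to 6.15 in SW1990 and 5.99 to 6.28 in PANC-1 for leukocytes, 6.03 to 6.16 and 6.24 to 6.26 for endothelium, 6.43 to 6.47 and 5.76 to 5.93 for acinar cells, and 6.25 to 6.28 and 6.22 to 6.30 for fibroblasts. The labels name 1 cell line for each array and no other kind of cell, and the part of these marker genes in the results was not tested. In bulk RNA, fewer cells of a line that express a gene and less RNA per cell cannot be told apart.

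Carcinoma cells differ in how far they keep an epithelial state. E-cadherin and EpCAM hold epithelial cells together, and transcription factors such as GRHL2 and EHF and the splicing factor ESRP1 keep up the epithelial programme, while ZEB1 binds E-box elements in promoters of epithelial genes and represses them, and vimentin and N-cadherin mark the mesenchymal state. The microRNAs of the miR-200 family, in turn, bind ZEB1 and ZEB2 transcripts. The 5 mature members are shown because they fall into 2 seed groups, and the seed, bases 2 to 8, is in capitals (RefSeq, GRCh38.p14). The first 3 share 1 seed and the other 2 share another.
hsa-miR-200b-3p: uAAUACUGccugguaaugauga
hsa-miR-200c-3p: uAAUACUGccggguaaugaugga
hsa-miR-429: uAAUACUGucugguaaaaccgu
hsa-miR-200a-3p: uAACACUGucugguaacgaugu
hsa-miR-141-3p: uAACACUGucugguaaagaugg
The genes MIR200B, MIR200A and MIR429 lie on chromosome 1 (chr1:1167160-1167181, chr1:1167916-1167937 and chr1:1169055-1169076 for the mature sequences, plus strand) and MIR200C and MIR141 on chromosome 12 (chr12:6963742-6963764 and chr12:6964155-6964176, plus strand). The E-box that ZEB1 is known to bind reads CACCTG on 1 strand and CAGGTG on the other. Among the 24 of 42 measured epithelial genes with a promoter sequence in RefSeq, 11 (45.833%) held at least 1 such E-box in the 250 bases before the start, as did 3 of 22 mesenchymal genes (13.636%) and 6143 of 35116 promoters of all genes (17.493%). Only CRB3 and AP1M2 among these 24 held 3 or more, as did 163 of all promoters (0.464%). They are shown for that reason, with each E-box in capitals, from 250 bases upstream to the start of the gene. CRB3, a subunit of the Crumbs polarity complex, has 5 in chr19:6464021-6464270 on the plus strand, and AP1M2, the epithelial adaptor subunit that sorts proteins to the basolateral membrane, has 3 in chr19:10587313-10587562 on the minus strand.
CRB3: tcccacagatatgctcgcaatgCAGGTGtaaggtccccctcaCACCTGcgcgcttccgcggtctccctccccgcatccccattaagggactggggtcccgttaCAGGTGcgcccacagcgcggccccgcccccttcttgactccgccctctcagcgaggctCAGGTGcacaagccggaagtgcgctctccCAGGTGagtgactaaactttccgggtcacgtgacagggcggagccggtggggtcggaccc
AP1M2: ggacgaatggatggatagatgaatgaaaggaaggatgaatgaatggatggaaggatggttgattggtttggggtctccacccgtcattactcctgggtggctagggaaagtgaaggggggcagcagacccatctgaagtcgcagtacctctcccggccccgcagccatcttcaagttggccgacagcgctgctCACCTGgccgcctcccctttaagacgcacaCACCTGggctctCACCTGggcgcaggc
A match is a description of the letters and not of a bound site. The shares count a single promoter per gene for the epithelial and mesenchymal genes but every promoter entry for all genes, so their units differ. CDH1, EPCAM, GRHL2 and ESRP1 had no promoter sequence in the source used and were not searched.

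The lines differed widely. At an adjusted p under 0.05 in limma (Benjamini-Hochberg over all genes), 9017 of 22411 genes differed, 4805 higher in SW1990 (21.4%) and 4212 lower (18.8%), and 10487 genes had an unadjusted p under 0.05. The 3 SW1990 values and the 3 PANC-1 values did not overlap for 8991 of the 9017 genes. A call with 3 arrays of each line nearly requires this, and genes without a call were not counted, so it adds no evidence. A difference of at least 2-fold was called for 739 genes higher in SW1990 (3.3%) and 960 lower (4.28%). These shares are the background against which each gene group below is read. The groups were chosen with earlier results of these data known, so their counts describe the lines and are not independent evidence of a direction.

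**Figure D1:**
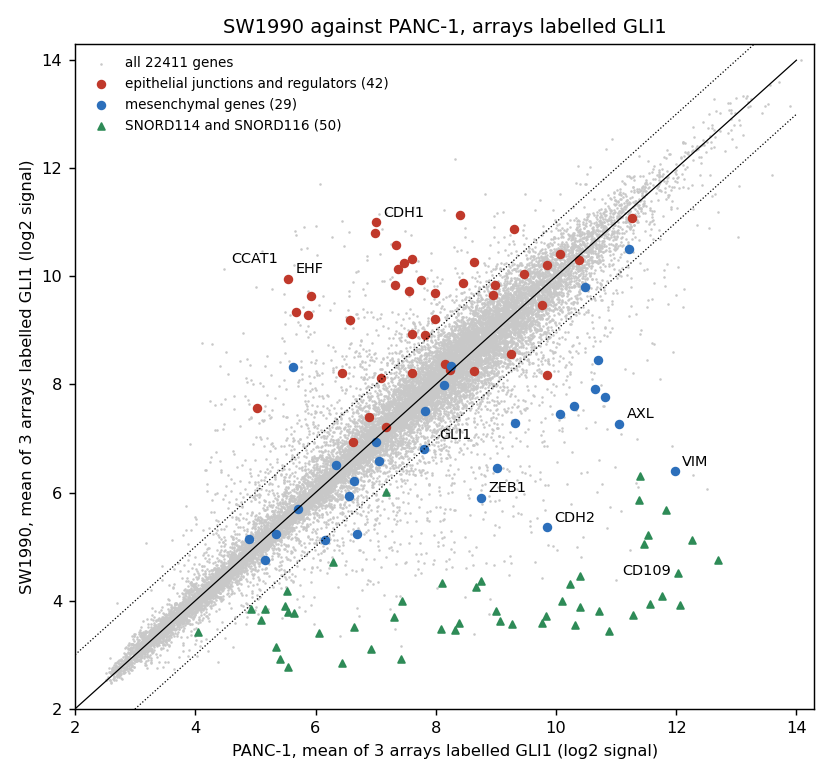
Mean log2 signal of the 3 SW1990 arrays labelled GLI1 (vertical) against the mean of the 3 PANC-1 arrays labelled GLI1 (horizontal) for all 22411 genes, with epithelial genes in red, mesenchymal genes in blue and the small nucleolar RNAs SNORD114 and SNORD116 as green triangles. Dotted lines mark 2-fold differences, beyond which 739 genes were called higher and 960 lower in SW1990.

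Epithelial adhesion and junction genes were mostly higher in SW1990: 18 of 23 were called higher (21.4% of all genes were), 2 lower (18.8%) and 3 did not pass, with a median difference of 0.86. CDH1, which encodes E-cadherin, was at 10.64, 11.16 and 11.19 in the SW1990 arrays, against 6.38, 7.14 and 7.51 in the PANC-1 arrays. The arrays of the 2 lines did not overlap and PANC-1 LIP was the lowest array, and the difference was 3.99 (SE 0.284, adjusted p = 2.91e-05), a 15.8-fold higher level in SW1990. EPCAM, a cell adhesion molecule of epithelia, was at 10.80, 10.83 and 10.76 in the SW1990 arrays, against 6.85, 7.07 and 7.06 in the PANC-1 arrays. The 3 arrays of each line lay close together, and SW1990 was 14-fold higher (adjusted p = 5.81e-08). DSP, the desmoplakin that ties desmosomes to keratin filaments, was at 11.13, 11.19 and 11.11 in the SW1990 arrays, against 7.96, 8.56 and 8.69 in the PANC-1 arrays, a 6.68-fold difference (adjusted p = 1.63e-05). CDH3, or P-cadherin, differed by 2.71 and the desmosomal plakophilin PKP2 by 1.63. The tight junction claudins CLDN3, CLDN7 and CLDN4 were higher in SW1990 by 1.71, 1.57 and 1.10 on the log2 scale. CLDN1, another claudin, went the other way, at 8.0, 8.24 and 8.29 in the SW1990 arrays, against 10.50, 9.62 and 9.42 in the PANC-1 arrays (difference -1.67, adjusted p = 0.00159). The desmosomal cadherin DSC2 was the other junction gene lower in SW1990 (-0.68). OCLN, which encodes occludin, did not pass the test at 10.22, 10.38 and 10.30 in the SW1990 arrays, against 10.50, 10.34 and 10.31 in the PANC-1 arrays (-0.09, adjusted p = 0.412), nor did the junction scaffold CGN (0.05) and the cornified envelope gene PPL (-0.30). The promoter with 5 E-boxes shown above belongs to CRB3, which was at 8.26, 8.25 and 8.16 in the SW1990 arrays, against 7.60, 7.55 and 7.65 in the PANC-1 arrays, a difference of 0.62 (adjusted p = 0.00012). CLDN3 and CLDN7, with larger differences, held no such E-box, nor did CLDN1, which was lower. A link between E-boxes and the differences was not tested.

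The regulators of the epithelial state were also higher in SW1990. Of 19 genes, 16 were higher in SW1990, none was lower and 3 did not pass, and 14 were at least 2-fold higher, with a median difference of 2.51. EHF, an ETS factor of epithelia, was at 10.02, 9.92 and 9.92 in the SW1990 arrays, against 5.52, 5.58 and 5.54 in the PANC-1 arrays. It had the largest difference of this group, 21.2-fold (adjusted p = 1.14e-08), and the arrays of a line lay close together. GRHL2, a grainyhead factor that keeps CDH1 expressed, was at 9.29, 9.35 and 9.38 in the SW1990 arrays, against 5.60, 5.70 and 5.71 in the PANC-1 arrays, a 12.7-fold difference (adjusted p = 2.74e-08). ESRP1, which directs epithelial splicing, was at 7.71, 7.47 and 7.50 in the SW1990 arrays, against 5.07, 4.95 and 5.04 in the PANC-1 arrays and differed 5.81-fold (adjusted p = 4.65e-07). Its relative ESRP2 differed by 1.44. The small GTPase RAB25, which recycles integrins and receptors to the membrane, was higher by 3.71, the Kruppel-like factor KLF5 by 3.23 and the membrane serine protease ST14, or matriptase, by 2.78. The lipid enzyme CDS1 was at 9.10, 9.45 and 9.31 in the SW1990 arrays, against 4.96, 6.39 and 6.26 in the PANC-1 arrays, and the PANC-1 array LIP was again the lowest. AP1M2, whose promoter is shown above, was at 9.83, 9.80 and 9.90 in the SW1990 arrays, against 7.02, 7.50 and 7.46 in the PANC-1 arrays (2.51, adjusted p = 5.32e-06). EHF and KLF5 held no such E-box, and RAB25 and CDS1 held 1 each, as did ELF3 and GRHL3. The ETS factor ELF3 (0.04, adjusted p = 0.858), the grainyhead factor GRHL3 (-0.38, adjusted p = 0.349) and the protease inhibitor SPINT2 (-0.19, adjusted p = 0.0978) did not pass the test.

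Mesenchymal genes ran in the opposite direction. Of 29 genes, 21 were lower in SW1990, 2 were higher and 6 did not pass, and 13 were at least 2-fold lower, with a median difference of -0.71. VIM, the intermediate filament protein vimentin, was at 6.31, 6.39 and 6.48 in the SW1990 arrays, against 11.99, 12.03 and 11.91 in the PANC-1 arrays. No SW1990 array came within 5 units of a PANC-1 array, and the level in SW1990 was 47.9-fold lower (adjusted p = 1.05e-08). CDH2, or N-cadherin, was at 5.38, 5.51 and 5.19 in the SW1990 arrays, against 9.62, 9.96 and 9.96 in the PANC-1 arrays, 22.5-fold lower in SW1990 (adjusted p = 2.25e-07). The repressor ZEB1 was at 5.97, 5.81 and 5.94 in the SW1990 arrays, against 9.03, 8.69 and 8.56 in the PANC-1 arrays, 7.22-fold lower (adjusted p = 2.02e-06). AXL, a receptor tyrosine kinase, differed by -3.78, the matrix protein TGFBI by -3.04, the fibronectin receptor subunit ITGA5 by -2.73 and the RNA-binding protein QKI by -2.62. The caveolar protein CAV1 (-2.26), the tropomyosin TPM2 (-2.70) and the lysyl oxidase LOXL2 (-2.04) were lower by a similar amount. Of the other repressors of E-cadherin, SNAI2 was lower by a smaller amount (-0.99, adjusted p = 0.000482), while SNAI1 (-0.14, adjusted p = 0.217) and TWIST1 (-0.11, adjusted p = 0.334) did not pass. PRRX1, a homeobox factor of mesenchyme, was an exception: it was at 8.68, 8.14 and 8.18 in the SW1990 arrays, against 5.59, 5.62 and 5.69 in the PANC-1 arrays, 6.5-fold higher in SW1990 (adjusted p = 5.97e-06). FN1, or fibronectin, was higher by 0.25 (adjusted p = 0.0196), a call lost without SW1990 LIP-1 or without SW1990 LIP-2. The matrix protein TNC did not pass (adjusted p = 0.88), and its PANC-1 values of 7.18, 8.73 and 8.84 spanned the SW1990 values of 8.30, 8.42 and 8.32.

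**Figure D2:**
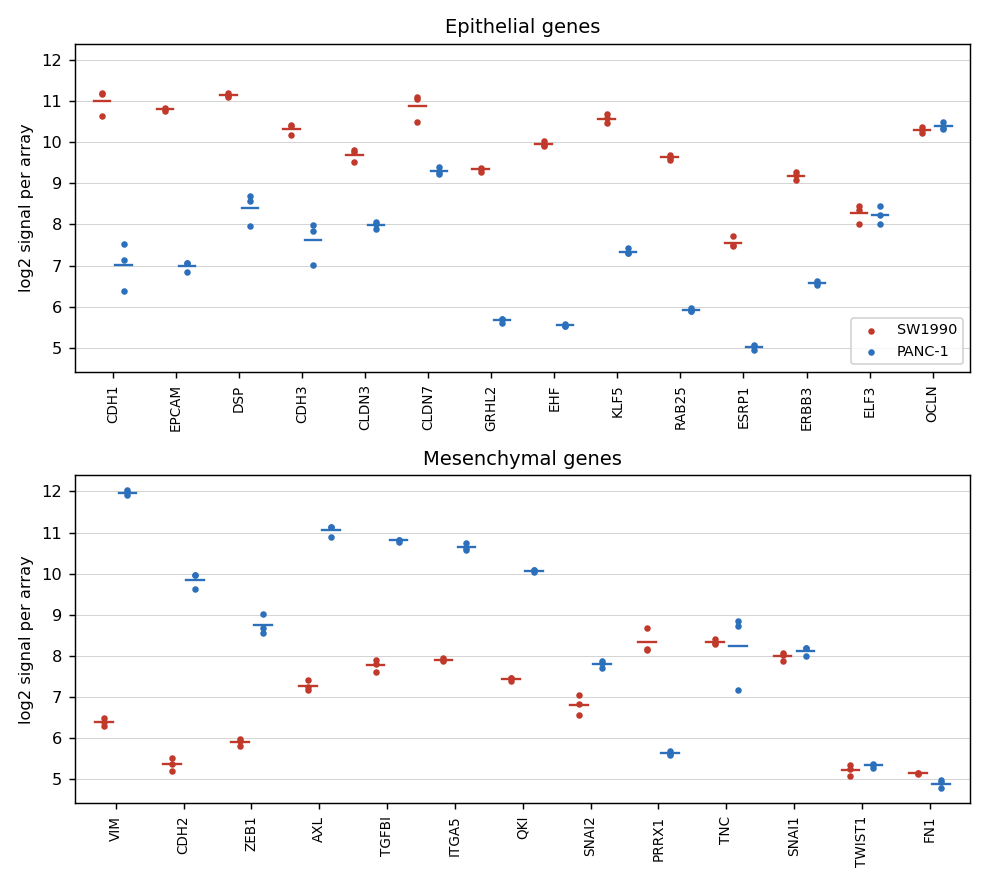
Log2 signal of 14 epithelial genes and 13 mesenchymal genes in each of the 6 arrays labelled GLI1, with 1 dot per array and a bar at each line's mean. EHF stands near 10 in SW1990 and near 5.5 in PANC-1, VIM near 6.4 in SW1990 and near 12 in PANC-1, and PRRX1 is higher in SW1990 unlike most mesenchymal genes.

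The genes of the miR-200 family, a list drawn up after the values were seen, were higher in SW1990 in 3 of 5 cases and lower in none. MIR200C was at 6.10, 6.10 and 5.98 in the SW1990 arrays, against 4.78, 4.75 and 4.95 in the PANC-1 arrays (1.23, adjusted p = 1.21e-05). MIR141, its neighbour on chromosome 12, was at 4.73, 4.60 and 4.59 in the SW1990 arrays, against 3.48, 3.30 and 3.54 in the PANC-1 arrays (1.20, adjusted p = 1.91e-05). In the group on chromosome 1, MIR200A was higher by 0.93 (adjusted p = 1.84e-05), while MIR200B (0.12, adjusted p = 0.222) and MIR429 (0.53, adjusted p = 0.0731) did not pass. By seed, both members of the second group shown above passed, and 1 of 3 of the first. None of the calls was left when the 30% of genes of lowest signal were taken out, and whether these probe sets read the mature microRNA was not tested. In the control arrays 1 of the 5 genes was higher in SW1990, at a median difference of 0.27 against 0.93 in the arrays labelled GLI1. The line difference differed between the labels for 1 of the 5.

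Among the largest differences upwards, CCAT1, a long noncoding RNA first described in colon cancer, was at 9.95, 10.16 and 10.32 in the SW1990 arrays, against 4.43, 4.38 and 4.64 in the PANC-1 arrays, a 50.6-fold higher level in SW1990 (adjusted p = 6.39e-08). Next came CADPS, a factor of dense-core vesicle release (5.37), the acyl-CoA synthetase ACSL5 (5.18) and the hyaluronan-degrading CEMIP (5.11). The serine protease KLK7 was at 10.77, 10.77 and 10.73 in the SW1990 arrays, against 5.55, 5.72 and 5.74 in the PANC-1 arrays (34-fold, adjusted p = 1.14e-08). The ubiquitin ligase RNF43 (4.75), the galactosyltransferase UGT8 (4.80), the annexin ANXA3 (4.67), the long noncoding RNA UCA1 (4.58), the transcriptional regulator MACC1 (4.48) and the scavenger receptor OLR1 (4.45) followed, with IGFL4, SLAMF6, TMEM52B, PRR15L, EHF, SEL1L3, PARM1 and FAM83B at differences between 4.94 and 4.20. CDH17, the intestinal liver-intestine cadherin, was at 8.13, 9.38 and 9.35 in the SW1990 arrays, against 4.79, 4.75 and 4.82 in the PANC-1 arrays, and SW1990 LIP lay below the other SW1990 arrays but well above PANC-1. Of the 13 kallikrein genes, a list chosen after seeing KLK7, 6 were higher in SW1990 and none lower. KLK6 was at 10.92, 11.25 and 11.32 in the SW1990 arrays, against 7.0, 7.19 and 7.35 in the PANC-1 arrays (3.99), KLK10 differed by 2.66 and KLK1 by 1.08.

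Downwards, CD109, a surface protein that binds TGF-β, was at 4.33, 4.40 and 4.40 in the SW1990 arrays, against 10.99, 11.01 and 10.98 in the PANC-1 arrays. The arrays of a line differed by less than 0.1, and CD109 had the largest difference of the genes chosen by the naming rule, which leaves out small RNAs, 97.7-fold lower in SW1990 (adjusted p = 4.27e-09). GJA1, the gap junction protein connexin 43, was at 4.94, 4.78 and 5.11 in the SW1990 arrays, against 11.52, 11.11 and 11.05 in the PANC-1 arrays, 77.8-fold lower (adjusted p = 9.7e-08). CCL2, a chemokine that draws monocytes, was at 6.14, 6.28 and 6.55 in the SW1990 arrays, against 12.85, 12.05 and 11.93 in the PANC-1 arrays, 62-fold lower (adjusted p = 1.58e-06). The GTPase RAB31 (-6.44), the chromatin remodeller SMARCA1 (-5.61), the aminopeptidase ANPEP (-5.60), the scramblase ANO6 (-5.51) and the fatty acid elongase ELOVL2 (-5.42) were also far lower. OSMR, the oncostatin M receptor, differed by -5.37, PRKAA2, a catalytic subunit of AMP-activated kinase, by -5.34, the proteoglycan SRGN by -5.27, and MSN, or moesin, which links actin to the membrane, by -5.26. BNIP3, a mitophagy receptor, was at 5.70, 5.64 and 5.83 in the SW1990 arrays, against 10.72, 10.90 and 11.06 in the PANC-1 arrays (-5.17). The ligand CD70 differed by -5.15, and CPNE8, FBXO27, DSEL, TM4SF18 and MAP7D3 by -5.13 to -4.94.

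Some feedback genes of the Wnt pathway set the lines apart. In this pathway Wnt ligands bind Frizzled receptors, β-catenin enters the nucleus, and AXIN2, RNF43, ZNRF3, NKD1, LEF1 and LGR5 are known to be switched on by it. All 6 were at least 2-fold higher in SW1990, with a median difference of 3.05, in a list drawn up after their values were seen. The secreted inhibitors DKK1, DKK3 and SFRP1, given below, were not in that list and were lower. RNF43, which removes Frizzled receptors from the surface, was at 10.50, 10.49 and 10.55 in the SW1990 arrays, against 5.75, 5.76 and 5.78 in the PANC-1 arrays, 26.9-fold higher (adjusted p = 7.9e-09). AXIN2, a scaffold of the β-catenin destruction complex, was at 11.08, 11.14 and 11.21 in the SW1990 arrays, against 7.04, 7.02 and 7.11 in the PANC-1 arrays, 17-fold higher (adjusted p = 1.99e-08). LGR5, an R-spondin receptor of intestinal stem cells, was at 7.27, 8.36 and 8.28 in the SW1990 arrays, against 5.09, 5.09 and 5.18 in the PANC-1 arrays (2.85, adjusted p = 0.000115), with SW1990 LIP the lowest of its line. The DNA-binding partner LEF1 differed by 3.26, the ligase ZNRF3 by 2.06 and NKD1 by 1.68. Over the whole Wnt list of 37 genes, 12 were higher, 10 lower and 15 did not pass, with a median of -0.06. The receptor FZD3 was at 8.95, 9.03 and 9.0 in the SW1990 arrays, against 5.85, 5.87 and 5.81 in the PANC-1 arrays (3.15), and none of the 12 Wnt ligands of the list differed by 2-fold. The secreted inhibitors DKK3 (-2.10) and SFRP1 (-1.44) were lower in SW1990. DKK1, another, was at 10.30, 7.81 and 7.68 in the SW1990 arrays, against 11.62, 12.17 and 12.06 in the PANC-1 arrays. Its SW1990 array LIP lay far above the other SW1990 arrays though below PANC-1, and the difference was -3.35 (SE 0.645, adjusted p = 0.00442). CTNNB1, β-catenin itself, differed by 0.21 (adjusted p = 0.0112), and APC did not pass (-0.12, adjusted p = 0.269).

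Most genes of the TGF-β and BMP pathway were lower in SW1990: 22 of 33, with 5 higher, 6 that did not pass and a median of -0.54. Of the ligands, BMP4 was at 12.24, 12.17 and 12.09 in the SW1990 arrays, against 7.88, 8.49 and 8.61 in the PANC-1 arrays, 14.3-fold higher in SW1990 (adjusted p = 3.55e-06), while its secreted antagonist NOG was at 5.38, 4.87 and 5.41 in the SW1990 arrays, against 9.39, 8.73 and 8.77 in the PANC-1 arrays, 13.4-fold lower (adjusted p = 9.32e-06). The activin subunit INHBB differed by -2.93 and LTBP1, which stores latent TGF-β in the matrix, by -2.73. Of the receptors, TGFBR2 was lower (-0.91, adjusted p = 0.00154) and the co-receptor TGFBR3 higher (1.79). Inside the cell, the signal transducer SMAD3 differed by -1.92 and the SMAD repressor SKIL by -2.36, whereas SMAD4 did not pass, at 9.75, 9.79 and 9.74 in the SW1990 arrays, against 9.68, 9.76 and 9.81 in the PANC-1 arrays (adjusted p = 0.915). ID2, a target of BMP signals, was higher by 1.09. Among 22 targets of YAP and TAZ, the co-activators held back by the Hippo kinases, 13 were lower and 6 higher, at a median difference of -0.78. ANKRD1 was at 5.14, 5.76 and 5.81 in the SW1990 arrays, against 9.76, 9.20 and 8.92 in the PANC-1 arrays (13.2-fold lower in SW1990, adjusted p = 2.1e-05). The matricellular proteins CCN2 (-2.88) and CCN1 (-2.66) and the bone morphogenetic protein regulator CRIM1 (-2.08) were lower too, and the tissue factor gene F3 (0.85) and the Hippo kinase LATS2 (0.59) were higher. Of the 25 Hippo components, 8 were higher and 6 lower, among them the co-activator WWTR1, or TAZ (-1.28), the scaffold AMOTL1 (-1.98) and the upstream activator WWC1 (1.41). YAP1 was at 10.43, 10.35 and 10.35 in the SW1990 arrays, against 10.12, 10.12 and 10.16 in the PANC-1 arrays (0.24, adjusted p = 0.00878), a call lost with array medians centred, and the kinase STK4 was at 8.79, 8.70 and 8.61 in the SW1990 arrays, against 9.31, 9.09 and 9.03 in the PANC-1 arrays (-0.44, adjusted p = 0.00569).

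Genes that separate pancreatic cancer subtypes did not sort the lines to one side. Of 28 classical-subtype genes, 9 were higher in SW1990 and 3 lower, and of 20 basal-like genes, 9 were higher and 1 lower, at median differences of 0.03 and 0.15. Without SW1990 LIP or without SW1990 LIP-2, 1 classical gene in place of 3 was lower. The forkhead factor FOXQ1 (3.66), TMEM45B (2.84) and the tetraspanin TSPAN8 (2.25) of the classical list were higher. AGR2, a disulphide isomerase of mucus cells, was lower, at 5.48, 6.47 and 6.56 in the SW1990 arrays, against 8.53, 8.18 and 8.20 in the PANC-1 arrays (-2.13, adjusted p = 0.000609). Of the basal-like list, UCA1, the focal adhesion protein TNS4 (3.36) and the growth factor carrier FGFBP1 (1.95) were higher and the retinol dehydrogenase DHRS9 lower (-2.70). Among the transcription factors of foregut and pancreas, 9 of 24 were higher and 2 lower. GATA6 was at 10.01, 10.14 and 10.22 in the SW1990 arrays, against 8.43, 7.64 and 7.67 in the PANC-1 arrays (2.21, adjusted p = 0.000107). The intestinal factor CDX2 differed by 2.40, the forkhead factor FOXA1 by 2.42 and the duct factor SOX9 by 1.07, whereas FOXA2 (-1.55) and GATA4 (-1.05) were lower.

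Of 13 keratins, 6 were higher in SW1990 and 1 lower. KRT19, the keratin of ducts, was at 11.42, 11.60 and 11.57 in the SW1990 arrays, against 8.64, 8.85 and 8.98 in the PANC-1 arrays, 6.53-fold higher (adjusted p = 9.57e-07). KRT20, an intestinal keratin, was at 5.56, 7.13 and 7.04 in the SW1990 arrays, against 4.23, 4.16 and 4.36 in the PANC-1 arrays (2.32, adjusted p = 0.0021), and its SW1990 array LIP was again the lowest of its line. KRT80 was lower (-1.48), and KRT7 did not pass, at 7.98, 7.98 and 7.87 in the SW1990 arrays, against 8.14, 8.04 and 8.08 in the PANC-1 arrays (adjusted p = 0.0995). Of the 14 mucins, MUC13 was at 7.59, 7.77 and 7.85 in the SW1990 arrays, against 4.32, 4.54 and 4.61 in the PANC-1 arrays (3.24), MUC20 differed by 1.35 and MUC5AC by 0.63, and MUC1 was lower (-1.09). Of the 16 ductal markers, of which 7 were higher and 2 lower at a median difference of -0.008, the stem cell antigen PROM1 (3.17), the carbonic anhydrase CA2 (1.16) and the chloride channel CFTR (0.89) were higher, and MUC1 and the annexin ANXA4 (-0.45) were the lower ones.

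Small nucleolar RNAs of 2 imprinted regions were far lower in SW1990. The copies of SNORD113 and SNORD114 lie downstream of MEG3 on chromosome 14, and those of SNORD115 and SNORD116 on chromosome 15, in the region lost in Prader-Willi syndrome. All were listed after the values were seen. In SW1990, 9 of 9 copies of SNORD113, 31 of 31 of SNORD114 and 19 of 19 of SNORD116 were lower, at median differences of -3.03, -4.86 and -4.80. Of the 31 copies of SNORD115, 1 was lower and none higher, at a median difference of -0.04. SNORD114-25 was at 3.90, 3.67 and 4.20 in the SW1990 arrays, against 11.80, 12.08 and 12.30 in the PANC-1 arrays, a difference of -8.14 (adjusted p = 7.12e-08). SNORD116-14 was at 4.05, 3.23 and 4.14 in the SW1990 arrays, against 10.65, 10.73 and 10.77 in the PANC-1 arrays, a difference of -6.91 (adjusted p = 5.25e-07). Both lay near the lower end of the scale in every SW1990 array and no detection calls were used, so the size of these differences is uncertain. When the 30% of genes of lowest signal were taken out, 2 copies of SNORD113, 16 of SNORD114 and 11 of SNORD116 were left among the calls. At the small end, SNORD114-31 differed by -1.15 and SNORD116-10 by -0.62. The copies are nearly alike in sequence, so a single copy's value is uncertain. MEG3, the long noncoding RNA of the chromosome 14 region, was at 6.45, 6.48 and 6.40 in the SW1990 arrays, against 9.56, 9.11 and 8.87 in the PANC-1 arrays, 6.65-fold lower in SW1990 (adjusted p = 1.01e-05), and 19 of 52 microRNA genes of the region, also listed after their values were seen, were lower and none higher (3 lower without the 30% of genes of lowest signal). DLK1, the protein-coding gene at its other end, did not pass the test, at 7.08, 7.14 and 7.06 in the SW1990 arrays, against 7.12, 7.07 and 7.15 in the PANC-1 arrays (adjusted p = 0.851).

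**Figure D3:**
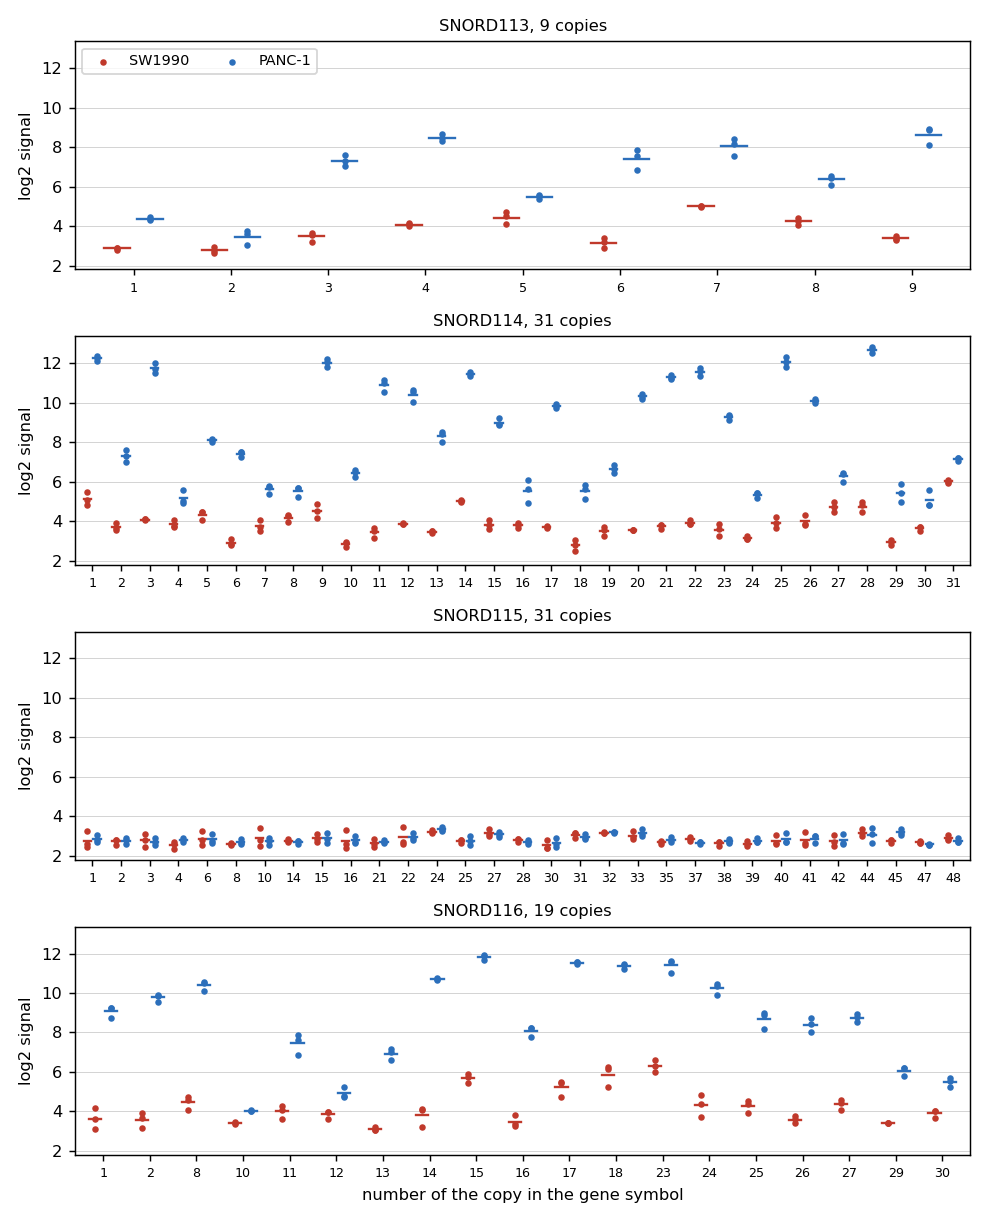
Log2 signal of each copy of SNORD113, SNORD114, SNORD115 and SNORD116 in the 6 arrays labelled GLI1, by the number of the copy in the gene symbol. In SNORD114 and SNORD116 the PANC-1 dots reach 12.84 and 11.92 while most SW1990 dots lie near 4, and in SNORD115 both lines lie near 2.8.

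Other imprinted genes differed in both directions, 6 higher and 6 lower of 18. PEG10, a retrotransposon-derived gene expressed from the paternal allele, was at 5.92, 5.99 and 6.10 in the SW1990 arrays, against 10.60, 10.68 and 10.76 in the PANC-1 arrays, 25.6-fold lower in SW1990 (adjusted p = 2.38e-08), and SGCE, its neighbour on chromosome 7, differed by -3.30. MEST was higher, at 9.17, 9.40 and 9.44 in the SW1990 arrays, against 7.17, 7.27 and 7.37 in the PANC-1 arrays (2.06). PLAGL1, a zinc finger factor, was higher as well, at 8.36, 8.62 and 8.61 in the SW1990 arrays, against 5.64, 6.84 and 6.85 in the PANC-1 arrays (2.09, adjusted p = 0.00122), and PANC-1 LIP was the lowest array.

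HOX genes, which set position along the body axis, split by cluster. Of the 10 genes measured in the HOXC cluster, 9 were at least 2-fold lower in SW1990 and none was higher, at a median difference of -1.32. HOXC11 was at 5.45, 5.47 and 5.51 in the SW1990 arrays, against 7.63, 7.79 and 7.61 in the PANC-1 arrays, 4.59-fold lower (adjusted p = 4.21e-07). HOXC10 differed by -2.12, HOXC9 by -1.86, HOXC8 by -1.79 and the noncoding HOTAIR, transcribed from the same cluster, by -1.25. HOXC12 was the member that did not pass (-0.08, adjusted p = 0.53). In the HOXB cluster, 6 of 9 genes were higher in SW1990 and 1 lower, at a median difference of 1.08. HOXB9 was at 11.41, 11.37 and 11.45 in the SW1990 arrays, against 9.66, 9.76 and 9.76 in the PANC-1 arrays, 3.2-fold higher (adjusted p = 7.39e-07). HOXB-AS3 differed by 1.50, HOXB6 by 1.17, HOXB5 by 1.10 and HOXB8 by 1.08. HOXB2 alone was lower, at 7.52, 7.60 and 7.44 in the SW1990 arrays, against 9.11, 9.23 and 9.24 in the PANC-1 arrays (-1.68, adjusted p = 1.61e-06). HOTTIP, a noncoding RNA at the end of the HOXA cluster, was at 8.04, 8.46 and 8.48 in the SW1990 arrays, against 5.82, 5.52 and 5.95 in the PANC-1 arrays (2.57), and of 7 HOXD genes 3 were higher by less than 2-fold. Whether the array counts HOXB-AS3, an antisense gene, apart from its partners was not tested.

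**Figure D4:**
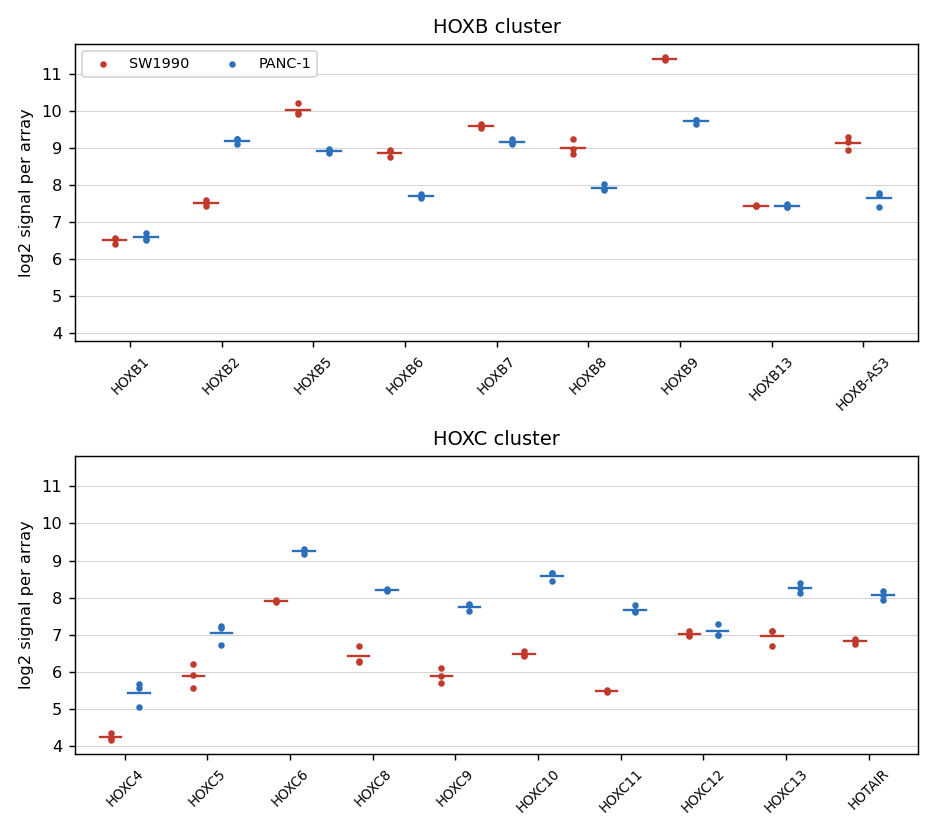
Log2 signal of the measured HOXB and HOXC genes in the 6 arrays labelled GLI1, with 1 dot per array. HOXC genes other than HOXC12 lie lower in SW1990, and in HOXB the gene HOXB2 lies lower while HOXB5, HOXB6, HOXB8, HOXB9 and HOXB-AS3 lie higher.

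MTAP, the methionine salvage enzyme whose gene lies beside CDKN2A on chromosome 9, was at 9.51, 9.08 and 9.27 in the SW1990 arrays, against 5.35, 5.64 and 5.74 in the PANC-1 arrays, 13.1-fold higher in SW1990 (adjusted p = 1.02e-06). CDKN2A, the cell cycle inhibitor p16 that many pancreatic tumours lose, did not pass, at 6.21, 6.21 and 6.03 in the SW1990 arrays, against 6.16, 6.23 and 6.20 in the PANC-1 arrays (-0.05, adjusted p = 0.629), and CDKN2B did not pass either (0.17, adjusted p = 0.247). The CDKN2A values lay below the median gene level of 7.22 in both lines. No detection calls were used, so these values do not show that either line expresses it. Of the 9 genes of this stretch, listed after their values were seen, FOCAD (0.66) and KLHL9 (0.36) were also higher and DMRTA1 was lower (-0.90). Of 23 driver genes of pancreatic cancer, MTAP and RNF43 included, 9 were higher in SW1990 and 5 lower. AKT2, a kinase amplified in some pancreatic tumours, was at 8.66, 8.71 and 8.76 in the SW1990 arrays, against 10.65, 10.58 and 10.59 in the PANC-1 arrays, 3.73-fold lower (adjusted p = 3.56e-07).

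Aldehyde dehydrogenases, detoxifying enzymes and NRF2 targets were more often higher than lower in SW1990, which drug transporters and gemcitabine genes were not. Of the 23 genes of the last list, 7 were higher and 8 lower, and 2 were higher without SW1990 LIP-1. The efflux pump ABCB1 was at 8.26, 8.80 and 8.73 in the SW1990 arrays, against 4.51, 4.48 and 4.57 in the PANC-1 arrays, 16.9-fold higher (adjusted p = 6.86e-07). Another pump, ABCG2, was lower, at 6.0, 6.11 and 6.07 in the SW1990 arrays, against 9.66, 8.09 and 7.95 in the PANC-1 arrays (-2.51, adjusted p = 0.002), and PANC-1 LIP was the highest array. The pump ABCC1 was lower as well (-1.44). Of the genes that handle gemcitabine and fluorouracil, DPYD, which breaks down fluorouracil, was lower (-1.62), the nucleoside transporter SLC29A1 was lower (-0.88), and DCK, the kinase that activates gemcitabine, was higher (0.31). Of 16 aldehyde dehydrogenases, 11 were higher and 2 lower, at a median difference of 0.50. ALDH2 was at 10.01, 10.45 and 10.36 in the SW1990 arrays, against 7.73, 7.68 and 7.73 in the PANC-1 arrays, 5.92-fold higher (adjusted p = 2.4e-06), ALDH3A1 differed by 2.43, ALDH6A1 by 1.84 and ALDH1L1 by 1.49, while ALDH1A3 was lower (-1.23). Of 25 glutathione transferases and other detoxifying enzymes, 15 were higher and 4 lower, at a median difference of 0.68, with SULT1C2 (1.95), MGST1 (1.83) and GSTM4 (1.47) among the higher, and 2 were lower without PANC-1 LIP-1. CYP1B1, a cytochrome that oxidises hydrocarbons, was the largest exception in this list, at 8.39, 9.01 and 8.89 in the SW1990 arrays, against 12.10, 11.32 and 11.37 in the PANC-1 arrays (-2.83, adjusted p = 7.15e-05). Of 19 targets of NRF2, the factor of the oxidative stress response, 14 were higher and 1 lower, at a median difference of 0.51. NQO1 was at 11.84, 12.15 and 12.08 in the SW1990 arrays, against 10.59, 10.52 and 10.57 in the PANC-1 arrays (1.47, adjusted p = 1.09e-05), the cystine transporter SLC7A11 differed by 1.21 and the aldo-keto reductase AKR1C1 by 1.12. The AKR1C genes are nearly alike, as are the GSTM genes, and single members are uncertain.

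Receptors and ligands of the ERBB family differed at both ends. The ligand NRG1, neuregulin, was at 6.01, 6.04 and 6.09 in the SW1990 arrays, against 9.71, 8.85 and 8.69 in the PANC-1 arrays, 8.21-fold lower in SW1990 (adjusted p = 5.08e-05). Its receptor ERBB3 was at 9.08, 9.20 and 9.27 in the SW1990 arrays, against 6.53, 6.57 and 6.62 in the PANC-1 arrays, 6.12-fold higher (adjusted p = 1.92e-07). The EGFR ligands EREG (1.21) and BTC (1.20) were higher and EGFR itself lower (-0.94). Of 30 other receptor tyrosine kinases, 7 were higher and 8 lower. KIT, the stem cell factor receptor, was at 9.60, 9.23 and 9.30 in the SW1990 arrays, against 5.56, 6.63 and 6.54 in the PANC-1 arrays (3.13), the ephrin receptor EPHB3 differed by 1.64, and KDR, a receptor for VEGF, was lower at 5.86, 5.34 and 5.26 in the SW1990 arrays, against 8.21, 7.22 and 6.79 in the PANC-1 arrays (-1.92, adjusted p = 0.00322).

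In the Hedgehog pathway, 5 of 23 components were higher in SW1990 and 4 lower, with 3 higher without PANC-1 LIP-1. PTCH1, the receptor and a known GLI target, was at 8.54, 8.82 and 8.66 in the SW1990 arrays, against 7.24, 7.21 and 7.16 in the PANC-1 arrays, 2.77-fold higher in SW1990 (adjusted p = 7.44e-06) although GLI1 was lower there. The ligand SHH differed by -0.23 (adjusted p = 0.0108), and the transducer SMO did not pass (-0.04, adjusted p = 0.563). The ligand release proteins DISP1 (-0.76) and DISP2 (-0.62) and the factor GLI2 (-0.55) were lower. Of 19 Hedgehog targets, 6 were higher and 5 lower, with the cyclin CCND2 at 10.05, 10.56 and 10.53 in the SW1990 arrays, against 7.01, 6.91 and 6.66 in the PANC-1 arrays (3.52) and the forkhead factor FOXL1 at 7.03, 6.70 and 6.51 in the SW1990 arrays, against 9.46, 8.09 and 8.21 in the PANC-1 arrays (-1.84).

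Collagens and basement membrane genes were more often lower than higher in SW1990. Of 28 collagens, 12 were lower and none higher, at a median difference of -0.14. COL5A2 was at 6.45, 6.34 and 6.25 in the SW1990 arrays, against 8.20, 9.03 and 9.04 in the PANC-1 arrays (-2.41, adjusted p = 9.23e-05), and COL1A1 differed by -1.80. Of 15 laminins and other basement membrane genes, 9 were lower and 3 higher. EFEMP1, a fibulin, was at 5.71, 5.72 and 5.61 in the SW1990 arrays, against 9.44, 10.0 and 10.0 in the PANC-1 arrays, 17.6-fold lower (adjusted p = 9.63e-07), and nidogen, NID1, was lower by a similar amount (-3.69). FRAS1, which anchors epithelium to its basement membrane, was higher, at 9.01, 8.79 and 8.77 in the SW1990 arrays, against 5.40, 5.46 and 5.49 in the PANC-1 arrays (3.41, adjusted p = 1.13e-07). Of 21 integrins, 9 were lower, with ITGB3 (-2.51), and 4 higher, with ITGB6 (1.45). The hemidesmosomal ITGB4 was higher too, at 10.44, 10.54 and 10.65 in the SW1990 arrays, against 8.09, 8.31 and 8.51 in the PANC-1 arrays (2.24). Of 22 matrix metalloproteinases and inhibitors, 8 were lower and 5 higher. MMP16 differed by -3.58 and MMP2 by -2.57, and the inhibitor TIMP4 was higher (2.07). MMP1, the interstitial collagenase, was at 4.66, 4.47 and 4.42 in the SW1990 arrays, against 9.11, 7.32 and 6.82 in the PANC-1 arrays (-3.24, adjusted p = 0.00182), with PANC-1 LIP far above its fellows. Of 17 plasminogen activators and serpins, 8 were higher and 3 lower. The plasminogen activator PLAU was lower (-2.35), and the serpins SERPINB5 (2.79) and SERPINB1 (2.40) were higher. The giant cadherin FAT4 was at 4.72, 4.84 and 4.98 in the SW1990 arrays, against 9.08, 8.37 and 8.35 in the PANC-1 arrays (-3.75).

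The p53 targets, ribosomal proteins and cell cycle genes differed mostly by less than 2-fold. Of 21 p53 targets, 17 were higher in SW1990 and 1 lower, at a median difference of 0.50. TP53INP1, a regulator of autophagy and cell death, was at 8.33, 8.77 and 8.85 in the SW1990 arrays, against 5.88, 7.10 and 7.40 in the PANC-1 arrays (1.85, adjusted p = 0.00513). The death receptor FAS differed by 1.31, the cell cycle inhibitor CDKN1A by 0.81 and the ligase MDM2 by 0.68, and PMAIP1, or NOXA, was the one lower gene (-1.14). Of 25 ribosomal protein genes, 19 were higher and 1 lower (RPS16, -0.74), none by 2-fold, at a median difference of 0.33. Of 27 S-phase genes, 11 were higher and 4 lower, with the helicase subunits MCM2 (0.70) and MCM4 (0.67) among the higher, and of 24 genes of the G2 and M phases, 7 were lower and 1 higher, with the spindle factor TPX2 (-0.86) and the cytokinesis factor ANLN (-0.81) among the lower. Neither list held a called 2-fold difference, and 12 genes of the second were lower without SW1990 LIP. MKI67, a marker of cycling cells, was at 11.38, 11.18 and 11.06 in the SW1990 arrays, against 11.17, 10.99 and 10.96 in the PANC-1 arrays (0.17, adjusted p = 0.233). Of 21 hypoxia targets, 7 were higher and 10 lower. The oxygen sensor EGLN3 was higher, at 8.32, 8.82 and 8.72 in the SW1990 arrays, against 5.88, 5.97 and 5.97 in the PANC-1 arrays (2.68), and the glucose transporters SLC2A3 (1.95) and SLC2A1 (1.52) were higher too. The stanniocalcins were lower, STC2 with a difference of -3.50 and STC1 at 5.88, 6.10 and 6.32 in the SW1990 arrays, against 10.44, 8.29 and 8.38 in the PANC-1 arrays (-2.94, adjusted p = 0.00324).

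Interferon-stimulated genes were low in both lines in these arrays. Over 35 such genes the median log2 signal was 6.27, 6.56 and 6.44 in the SW1990 arrays and 6.04, 6.35 and 6.44 in the PANC-1 arrays. In the control arrays it was 10.50, 10.60 and 10.62 in SW1990 and 7.07, 6.34 and 9.30 in PANC-1, where the last is array S8, which stood apart from S10 and S11. In the arrays labelled GLI1, 12 of the 35 genes were higher in SW1990, 5 lower and 18 did not pass, at a median difference of 0.17. The count was 2 higher and 0 lower when the spread was estimated over all 12 arrays, and 8 to 17 higher and 3 to 7 lower as single arrays were left out. HERC6, an interferon-induced ligase, was at 7.75, 7.99 and 8.02 in the SW1990 arrays, against 5.81, 5.95 and 6.04 in the PANC-1 arrays (1.98, adjusted p = 3.79e-06). USP18, which removes ISG15 from proteins, was at 10.0, 10.04 and 9.92 in the SW1990 arrays, against 7.25, 8.29 and 8.50 in the PANC-1 arrays (1.97, adjusted p = 0.00122). In the other direction SAMD9, an antiviral factor, was at 4.58, 4.80 and 5.41 in the SW1990 arrays, against 6.08, 6.49 and 6.58 in the PANC-1 arrays (-1.45, adjusted p = 0.00149). IFI6 (1.14, adjusted p = 0.0132) and OAS1 (0.95, adjusted p = 0.0198) were higher, IFI35 (-0.91, adjusted p = 0.012) and DDX60 (-0.84, adjusted p = 0.0228) lower, and the calls of these 4 genes were lost with the methods' t-test after Benjamini-Hochberg adjustment and in the fit of all 12 arrays. The SAMD9 call was lost in the limma fit of all 12 arrays as well (adjusted p = 0.0941). DDX60 also lost its call when any array other than PANC-1 LIP was left out. OAS1 lost it without SW1990 LIP-1, SW1990 LIP-2, PANC-1 LIP or PANC-1 LIP-1, and IFI6 without SW1990 LIP-2. CGAS, the sensor of cytosolic DNA, was at 4.85, 5.14 and 4.86 in the SW1990 arrays, against 8.52, 8.17 and 8.04 in the PANC-1 arrays, 9.82-fold lower in SW1990 (adjusted p = 1.98e-06), while STING1, which relays its signal, was higher by 1.21 (adjusted p = 0.000391). Of the 17 type I interferon genes on chromosome 9, listed after their values were seen, 4 were higher in these arrays, beside 21.4% of all genes. None was higher in the controls, and none was left when the 30% of genes of lowest signal were taken out. IFNE was at 6.56, 5.24 and 4.84 in the SW1990 arrays, against 4.19, 4.10 and 3.67 in the PANC-1 arrays (1.56, adjusted p = 0.018), with SW1990 LIP far above LIP-1 and LIP-2, and the call was lost without PANC-1 LIP-2 (adjusted p = 0.0624) and with the methods' t-test after Benjamini-Hochberg adjustment. The IFNA copies among them are nearly alike.

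**Figure D5:**
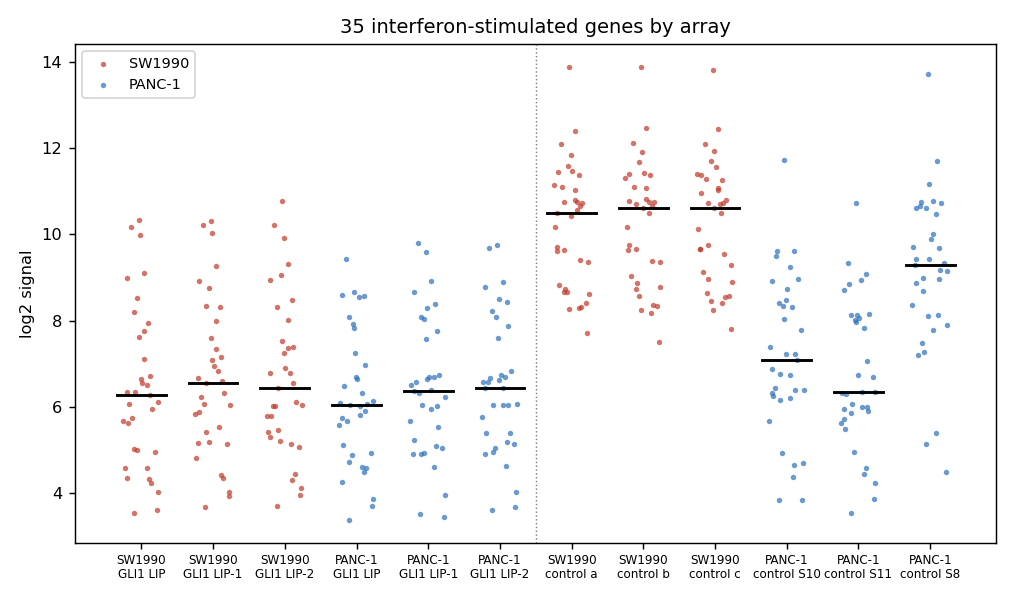
Log2 signal of 35 interferon-stimulated genes in each of the 12 arrays, 1 dot per gene, with a line at the median. The medians lie between 6.04 and 6.56 in the 6 arrays labelled GLI1 and between 10.50 and 10.62 in the SW1990 controls, and the PANC-1 controls range from 6.34 (S11) to 9.30 (S8).

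Genes of MHC class I presentation were more often lower in SW1990 in these arrays, 9 of 19, with 4 higher and 1 to 4 higher as single arrays were left out (1 without PANC-1 LIP-1). The controls of the same lines went the other way, with 10 of the 19 higher in SW1990 and 1 lower. The median difference was -0.14 in the arrays labelled GLI1 and 0.83 in the controls. For 7 of the 19 the line difference differed between the labels, and for 17 without S8. B2M, the light chain of class I molecules, was at 9.08, 8.66 and 8.95 in the SW1990 arrays, against 10.88, 10.88 and 10.79 in the PANC-1 arrays, 3.87-fold lower (adjusted p = 7.83e-06). The peptide trimming enzyme ERAP1 differed by -2.25 and the peptide transporters TAP2 and TAP1 by -1.38 and -1.02. HLA-B (0.49), HLA-G (0.36) and HLA-F (0.35) were higher, but HLA genes share sequence and single members are uncertain. Of 22 NF-κB genes, 12 were lower and 3 higher, at a median difference of -0.31, and 1 was higher without SW1990 LIP-1, PANC-1 LIP-1 or PANC-1 LIP-2. TNFAIP2, a gene induced by tumour necrosis factor, was at 7.44, 7.41 and 7.30 in the SW1990 arrays, against 9.79, 9.75 and 9.89 in the PANC-1 arrays (-2.43), and the inhibitor NFKBIB (-1.89) and the ubiquitin ligase BIRC2 (-1.38) were lower too. Of 25 cytokines and chemokines, 6 were lower, among them CCL2 and CSF1 (-1.66), and 5 higher, among them IL33 at 5.78, 5.87 and 5.58 in the SW1990 arrays, against 3.88, 3.65 and 4.01 in the PANC-1 arrays (1.90) and CXCL16 (1.44).

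The control arrays, separate hybridizations of the same 2 lines, were set beside these results. There 8214 genes differed between the lines, 4485 higher in SW1990 (20%) and 3729 lower (16.6%), and 9962 differed without array S8. In the same direction 6417 genes were called under both labels, 71.2% of the calls in the arrays labelled GLI1 and 78.1% of those in the controls, and 27 were called in opposite directions. Without S8, 6792 genes were called in the same direction under both labels. Of the 1699 genes with a 2-fold difference in the arrays labelled GLI1, 1628 (95.8%) were called in the same direction in the controls, and 1655 without S8. Across all genes, which are not independent, the 2 sets of differences had a Pearson correlation of 0.914 and a Spearman correlation of 0.791. The epithelial regulators had a median difference of 2.51 in the arrays labelled GLI1 and 2.38 in the controls, the mesenchymal genes -0.71 and -0.88, SNORD114 -4.86 and -4.00, and SNORD116 -4.80 and -4.85. Without S8 the control medians were 2.51, -0.85, -3.86 and -4.45. Other lists were less alike under the 2 labels. The ribosomal proteins had medians of 0.33 and 0.12, with 8 higher and 4 lower in the controls. The G2 and M phase genes had -0.17 and -0.51, with 18 lower and 1 higher in the controls. The MHC class I genes had medians of opposite sign, -0.14 and 0.83.

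The difference between the lines itself differed between the labels for 536 genes (2.39%), tested with all 12 arrays, and for 3416 of 22411 without control array S8. Of the 35 interferon-stimulated genes, 12 did, and their median line difference was 0.17 in the arrays labelled GLI1 and 2.36 in the controls. Without S8, 34 of 35 did, and the control median was 3.26. S8 was singled out for its values in interferon genes, so the results without it are description and no support. For CXCL10, an interferon-induced chemokine, the line difference was 0.47 in the arrays labelled GLI1 and 5.79 in the controls. B2M had line differences of -1.95 and 0.09, a change of -2.04 (adjusted p = 0.006), and TAP2 of -1.38 and 0.83, a change of -2.21 (adjusted p = 0.00272). Without S8 these changes were -2.35 (adjusted p = 2.83e-06) for B2M and -2.51 (adjusted p = 1.19e-06) for TAP2. In the NRF2 list 8 of 19 genes differed in this way and 16 without S8, with GCLC, the glutathione synthesis enzyme, at 0.30 and 1.45 (adjusted p = 0.000147). Of the epithelial and mesenchymal genes, 1 of 23 junction genes, 2 of 19 regulators and 1 of 29 mesenchymal genes did, and 5, 5 and 10 without S8. The mesenchymal gene called with all arrays was PRRX1, with line differences of 2.70 and 1.61 (adjusted p = 0.0115). In SNORD114, 7 of 31 copies did, and 13 without S8. A gene that did not pass was not shown to have the same line difference under both labels.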

How the data were processed

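RNA of SW1990 and PANC-1 cells was read on 12 arrays, 3 for each line and label. The deposited values are log2 signals of 70523 probe sets per array, which the authors corrected for background and normalized by methods that are not named. Neither the software nor a genome build is given in the sources used here, and the background step could not be redone. Arrays were assigned by their labels for cell line and transfection, and none was left out.

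The 12 arrays were quantile normalized, since the deposited array medians ran from 5.86 to 6.00. The annotation of the platform gave 1 symbol for 23781 probe sets, several for 1543 and none for 45199, and only the first were used. Of several probe sets of a gene the one of highest mean was kept, which left 22411 genes, and dim genes were not filtered. SW1990 was compared with PANC-1 in the 6 arrays labelled GLI1 in limma 3.58.1 (R 4.3.3, functions lmFit and eBayes), without covariates and with 4 residual degrees of freedom. Benjamini-Hochberg adjustment ran over all genes, and an adjusted p under 0.05 was a call. The control arrays were fitted likewise, and the difference between labels in 1 fit of all 12 arrays with 8 residual degrees of freedom. Precision is limited by the number of arrays.

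The gene lists and named genes were chosen with earlier results of these data known, and lists said to be chosen after their values were seen are described and support nothing. Named genes are GLI1, the 20 largest differences in each direction among called genes without overlap (small RNA, antisense, pseudogene, Y-linked, XIST, open reading frame, clone, LOC and LINC names left out), up to 4 called members of each list with the largest difference, a fixed set of markers, the interferon-stimulated genes and the 10 genes of smallest p for the difference between labels. Genes named beyond that rule were chosen after their values were seen. The alternatives were the fit of all 12 arrays, values as deposited, centred medians, quantile normalization of 6 arrays, the mean over probe sets, a filter on the dimmest 30% of genes, limma-trend with robust eBayes, array weights, an adjusted p under 0.01, a 2-fold threshold, the methods' t-test, a replicate block and leaving out each array. On simulated arrays of 22411 genes the fit recovered 92 of 100 genes with a log2 difference of 1 and 99 of 100 with a difference of 2. It made 13 false calls among the unchanged genes. The simulation used independent normal noise and changed only those genes, far fewer than were called here. It checks that the fit runs correctly and does not give the error rate of these data. Promoter and microRNA sequences came from RefSeq (GRCh38.p14), in which 24 of 42 epithelial genes had a promoter entry.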

Additional observations from a re-analysis of the deposited data

Results flagged for a closer look

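The 10 genes given here had the smallest p in the test, over all 12 arrays (limma), of whether the difference between the lines was another in the arrays labelled GLI1 than in the controls. Each change is given as the line difference in the arrays labelled GLI1 minus that in the controls. Of the interferon-induced genes, EPSTI1 changed by -3.39 (adjusted p = 1.74e-07), CXCL10 by -5.32 (adjusted p = 7.86e-05), CXCL11 by -3.39 (adjusted p = 7.86e-05) and HCP5, a noncoding gene of the MHC region, by -2.52 (adjusted p = 0.000147). EPSTI1 was at 4.99, 5.17 and 5.20 in the SW1990 arrays, against 4.88, 4.93 and 5.03 in the PANC-1 arrays, and at 8.66, 8.57 and 8.45 in the SW1990 controls and 4.93, 4.95 and 5.12 in the PANC-1 controls. It was low in all arrays but the SW1990 controls. ARRDC3, an arrestin, changed by -2.44 (adjusted p = 7.86e-05) and GCLC, the glutathione synthesis enzyme, by -1.15 (adjusted p = 0.000147). In the other direction the growth factor-like IGFL2 changed by 2.36 (adjusted p = 2.42e-05), the perforin gene PRF1 by 1.94 (adjusted p = 0.000147), SLFN12 by 1.27 (adjusted p = 0.000147) and CRTAM by 1.03 (adjusted p = 7.86e-05). IGFL2 was at 9.50, 9.27 and 9.27 in the SW1990 arrays, against 5.53, 5.41 and 5.53 in the PANC-1 arrays, and at 7.0, 6.96 and 7.30 in the SW1990 controls and 5.62, 5.63 and 5.50 in the PANC-1 controls. All 10 were called whichever of the 12 arrays was left out, with a highest adjusted p of 0.00108 in limma. They were picked for the smallest p in the fit of these same arrays, so this adds no evidence. The cause was not tested.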

How the results depend on the processing

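A 2-fold threshold on top of the adjusted p gave 1699 genes in place of 9017, 739 higher and 960 lower. Leaving out single arrays gave 7509 to 8805 genes, 4003 to 4618 higher and 3506 to 4187 lower, of which 722 to 764 and 931 to 995 by 2-fold. Of the 295 named genes, none called reversed its direction. Other settings gave 6645 (adjusted p under 0.01) to 11221 genes (array weights), with 9819 for the methods' t-test unadjusted and 7686 after Benjamini-Hochberg adjustment. Between the lines, the deviations of arrays of 1 name correlated at 0.11, 0.017 and 0.06, and those of different names at -0.121 to 0.082. Whether the names LIP, LIP-1 and LIP-2 pair the arrays is thus not settled. A replicate block by name gave 8739 genes, and changed the call of 4 of 295 named genes. The share of calls higher in SW1990 was 53.29%, 57.94% on the values as deposited and 46.39% with array medians centred.

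The control arrays gave 6191 to 9962 genes as single arrays were left out. The count of 536 genes whose line difference differed between labels was 267 with array medians centred, 6039 with array weights and 228 (without SW1990 control b) to 3416 (without PANC-1 control S8) as single arrays were left out. Of the 295 genes chosen by the naming rule, 251 kept their side of the threshold under every setting, other than the stricter thresholds, that gave them a value (the filter on low signal did so for 268), and the interferon-stimulated genes were the most frequent among the other 44. The rule took interferon-stimulated genes whatever their values and most other genes for large called differences. Their frequency among the 44 thus follows in part from the rule. Without the 30% of genes of lowest signal, 2 of 9 SNORD113, 16 of 31 SNORD114 and 11 of 19 SNORD116 calls were left. Values low on the scale carry little signal over background, and no detection calls were used.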

Other observations

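Several gene groups that belong to none of the groups above were set beside the same background. Of 22 cancer-testis antigens, 8 were lower in SW1990 and none was higher, at a median of -0.13. DDX43, a helicase of the germ line, was at 4.26, 4.27 and 4.16 in the SW1990 arrays, against 7.89, 8.17 and 7.99 in the PANC-1 arrays (-3.78, limma, adjusted p = 8.63e-08), and PRAME differed by -2.59, MAGEA6 by -1.92 and CSAG1 by -1.84. MAGEA6 is nearly identical to MAGEA3 and uncertain on its own. Of 18 S100 genes, 6 were higher and 4 lower (3 higher without PANC-1 LIP-1), and S100A14, an epithelial member, was at 9.32, 9.44 and 9.41 in the SW1990 arrays, against 6.72, 6.76 and 6.87 in the PANC-1 arrays (2.61, adjusted p = 1.57e-07). Of 25 neuroendocrine and neuronal genes, 9 were lower and 2 higher, with the granule protein SCG5 higher (1.48) and the adhesion molecule L1CAM lower (-1.19). CHGA, the chromogranin of neuroendocrine granules, did not pass, at 7.23, 7.21 and 7.17 in the SW1990 arrays, against 7.17, 7.21 and 7.35 in the PANC-1 arrays (adjusted p = 0.72).

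Of 10 metallothioneins, 1 was higher and 3 were lower, in a list that also held the zinc exporter SLC30A1. MT1F was at 11.68, 10.97 and 11.03 in the SW1990 arrays, against 9.98, 9.88 and 10.01 in the PANC-1 arrays (1.27, adjusted p = 0.000891), and SLC30A1 was at 8.65, 9.0 and 8.85 in the SW1990 arrays, against 10.28, 10.03 and 10.13 in the PANC-1 arrays (-1.31, adjusted p = 5.38e-05). Of 23 immune checkpoint and surface ligands, 5 were higher and 3 lower, with MICB, a stress ligand for natural killer cells, among the lower (-1.45). Of 13 complement genes, C4BPB (1.32), C5 (1.07) and CD46 (0.72) were among the 4 higher, and CD55 was lower (-1.04). Of 27 genes of oxidative phosphorylation, 6 were higher and 7 lower, none by 2-fold, and 2 or 3 were higher without SW1990 LIP, SW1990 LIP-1, PANC-1 LIP-1 or PANC-1 LIP-2. Of 22 genes of cholesterol and fatty acid synthesis, 1 was higher and 3 lower (7 without PANC-1 LIP), with the desaturase FADS2 at 8.14, 8.30 and 8.19 in the SW1990 arrays, against 8.96, 9.92 and 10.02 in the PANC-1 arrays (-1.43, adjusted p = 0.00332).

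In some genes an array named LIP lay apart from LIP-1 and LIP-2 of its own line. In SW1990 these included DKK1, CDH17, KRT20, LGR5 and IFNE, and in PANC-1 ABCG2, MMP1, STC1, PLAGL1, CDS1 and TNC, all singled out after their values were seen. Without SW1990 LIP the line difference was -4.21 for DKK1, 2.83 for KRT20 and 1.05 for IFNE, and without PANC-1 LIP it was -2.56 for MMP1, -2.24 for STC1 and -1.96 for ABCG2, and all 6 were still called, although IFNE was not without PANC-1 LIP-2. Over the 22 genes of cholesterol and fatty acid synthesis, the median signal was lowest in LIP in both lines, at 8.62, 9.30 and 9.42 in the SW1990 arrays, against 8.56, 9.55 and 9.70 in the PANC-1 arrays. The name is not explained in the sources used here, and what set these arrays apart was not tested.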
